A study of Homo sapiens with 12 samples.

Results

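The enzymes that pass one-carbon units between mitochondria and cytosol on folate were examined during methotrexate exposure of HT29, a line established from a human colon adenocarcinoma. The members were given as a list of 9 genes, MTHFD1, MTHFD1L, MTHFD2, MTHFD2L, SHMT2, MTHFS, ALDH1L1, ALDH1L2 and MTFMT. Of these, 8 had a probe set of their own on the Affymetrix human gene array and were among the 18377 genes tested. The only probe set of MTHFS was shared with the read-through gene ST20-MTHFS and is described apart. The 12 arrays form 4 groups of 3 biological replicates, all of HT29 cells grown in F12 medium with 7% serum. They are an untreated control, taken as 0 h, and cells exposed to 70 nM methotrexate for 8, 24 and 48 h. Untreated cells of the later times were not analysed here, so treatment and time in culture cannot be told apart.

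In mitochondria, SHMT2 moves a carbon unit from serine to tetrahydrofolate, MTHFD2 or MTHFD2L oxidises it, and MTHFD1L releases it as formate. In the cytosol, MTHFD1 loads formate back onto tetrahydrofolate, and the folates formed feed purine, thymidylate and methionine synthesis. ALDH1L1 and ALDH1L2 oxidise formyl-tetrahydrofolate to carbon dioxide, and MTFMT uses it to formylate the initiator methionine of mitochondrial translation. Methotrexate is an antifolate that depletes reduced folates.

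The deposited values are ratios to the median of the 3 control arrays, so levels relative to control were measured and absolute levels were not. Their scale was taken as log2 because RMA, the method named in the submitters' processing notes, gives log2 values, and every fold printed here rests on that. Whether a gene stood above background, and whether the epithelial markers of HT29 were abundant, could therefore not be checked. Of 11 epithelial markers, 2 rose and 1 fell at 8 h, 3 rose and 1 fell at 24 h, and 1 rose and 1 fell at 48 h, where 24.2%, 16.7% and 25.3% of all genes were called. Their log2 fold changes ran between -0.64 and 0.50 at 8 h, -0.28 and 0.79 at 24 h, and -0.37 and 0.51 at 48 h, a range as wide as that of the one-carbon enzymes, and their part in the results was not tested. Of the 7 fibroblast and 6 leukocyte and endothelial markers measured, 0 were called against control at any time by limma, and 1 passed an unadjusted p under 0.05, at 24 h. The log2 fold changes of the markers in these 2 lists lay between -0.13 and 0.21. The third 48 h array was unlike its replicates, at a root mean square difference over genes of 0.184 to 0.208, against 0.094 to 0.143 for the other replicate pairs. In a bulk sample, fewer cells expressing a gene and less RNA per cell cannot be told apart.

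Across the time course, 7 of the 8 measured enzymes passed the moderated F test of limma (Benjamini-Hochberg adjusted p under 0.05), a call made for 38.8% of all genes. ALDH1L2 was the exception (adjusted p = 0.29), although with estimated array weights it passed too (adjusted p = 0.0049) and 8 of 8 were called. The 38.8% is from the fit without weights, and the share of all genes called with weights was not counted. The changes were small, with group means spanning 0.14 to 0.71 on the log2 scale per gene, against a pooled SD between replicates of 0.041 to 0.086. MTHFD1L had the widest span of group means (0.71) and MTHFD2 the smallest p (adjusted p = 4.89e-06, rank 667 of 18377). The call of MTFMT (adjusted p = 0.0463) was lost in 12 of 15 alternative settings, over which its adjusted p ran between 0.00145 and 0.177.

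**Figure D1:**
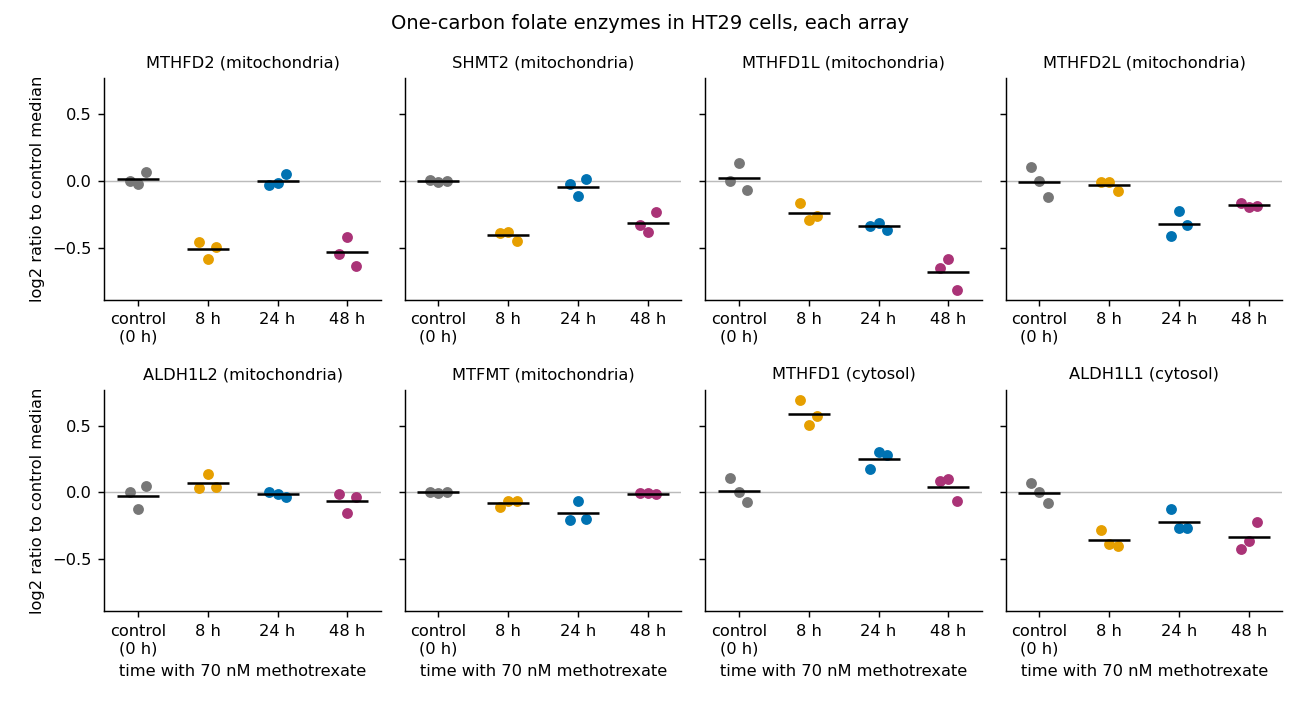
Log2 ratio to the control median (y axis) on each of the 12 arrays, by time with 70 nM methotrexate (x axis), for 6 mitochondrial and 2 cytosolic enzymes. Points are arrays and bars are means of 3. MTHFD2 and SHMT2 were low at 8 and 48 h and near control at 24 h, MTHFD1L was lowest at 48 h, and MTHFD1 was highest at 8 h.

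The question of the first comparison is which enzymes differed after 8 h with methotrexate. The mitochondrial enzymes MTHFD2, SHMT2 and MTHFD1L fell, the cytosolic MTHFD1 rose, and the cytosolic ALDH1L1 fell. MTHFD2 was 1.44-fold lower (log2 fold change -0.53, SE 0.06), SHMT2 1.33-fold lower (-0.41, SE 0.05) and MTHFD1 1.49-fold higher (0.58, SE 0.07), with n = 3 per group. In all, 1 of 8 rose and 4 fell, where 12.1% of all genes rose and 12% fell (24.2% together). Of the 6 mitochondrial enzymes 3 fell and 0 rose, and the same counts held at an unadjusted p under 0.05. No share of all genes was counted at that unadjusted threshold. The members' median log2 fold change was -0.17, against 0.02 for all genes. The 3 treated values lay wholly on one side of the 3 control values in 6 of 8 members, as they did in 37.9% of all genes.

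After 24 h MTHFD2 and SHMT2 were near control again, and MTHFD1L, MTHFD2L, ALDH1L1 and MTFMT were lower. MTHFD1L was 1.28-fold lower (-0.36, SE 0.07), MTHFD2L 1.25-fold lower (-0.32, SE 0.06) and MTHFD1 1.18-fold higher (0.24, SE 0.07). In all, 1 of 8 rose and 4 fell, where 8.69% of all genes rose and 8.02% fell (16.7% together). The members' median was -0.10, against 0.02 for all genes, and 5 of 8 did not overlap control, as did 33% of all genes. The count of 5 called members came to 2 without control replicate 2 or 24 h replicate 3. It was 3 without control replicate 1 or 3, 8 h replicate 2, 24 h replicate 2 or 48 h replicate 2, with MTHFD1L and MTHFD2L called in every fit.

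After 48 h MTHFD1L, MTHFD2, SHMT2 and ALDH1L1 fell and no member rose. MTHFD1L was 1.63-fold lower (-0.71, SE 0.07), the largest difference from control of any member at any time, and MTHFD2 was 1.46-fold lower (-0.55, SE 0.06). Thus 0 of 8 rose and 4 fell, where 13% of all genes rose and 12.3% fell (25.3% together). At an unadjusted p under 0.05 limma had 0 rising and 5 falling, with no share of all genes counted at that threshold. By the adjusted p, without 48 h replicate 3, again 0 rose and 4 fell. The members' median was -0.25, against 0.01 for all genes. Treated and control values did not overlap in 6 of 8 members, as in 35.7% of all genes. These 3 comparisons share the same control arrays.

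**Figure D2:**
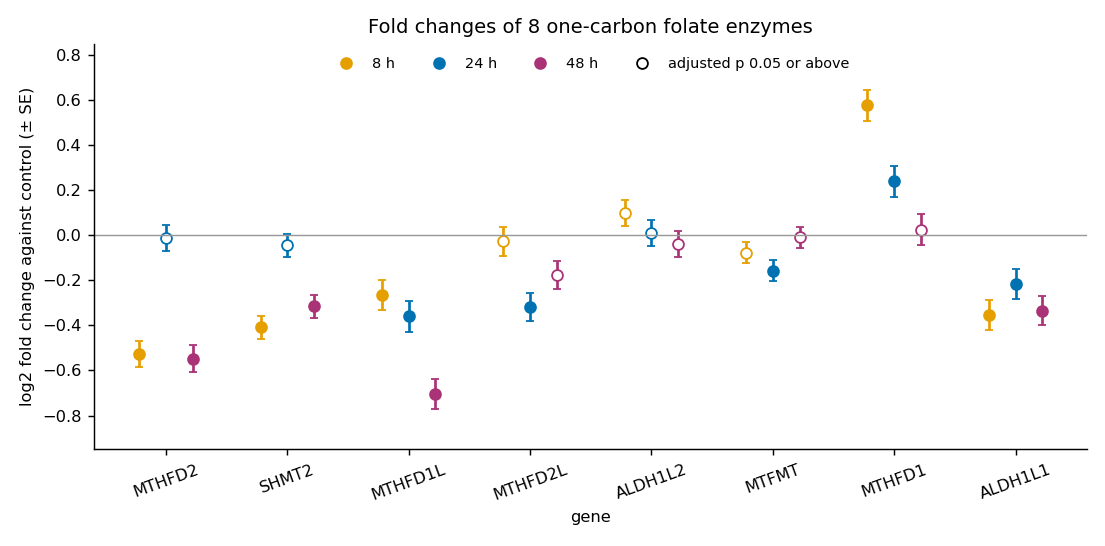
Log2 fold change against control with limma's standard error (y axis) for 8 enzymes (x axis) at 8, 24 and 48 h. Filled points passed an adjusted p under 0.05 and open points did not. MTHFD1 was the only member called higher, at 8 and 24 h, and MTHFD1L and ALDH1L1 were called lower at all 3 times.

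MTHFD2, the mitochondrial methylene-tetrahydrofolate dehydrogenase known for its high expression in embryonic and tumour cells, gave the clearest alternation. Its log2 ratios were 0.00, -0.03 and 0.06 in control cells, -0.46, -0.59 and -0.50 at 8 h, -0.03, -0.02 and 0.05 at 24 h, and -0.55, -0.42 and -0.63 at 48 h. All 8 h and 48 h arrays lay below all control and 24 h arrays, and the control and 24 h arrays overlapped. The mean was 0.01 ± 0.05 in control cells, -0.51 ± 0.07 at 8 h, 0.00 ± 0.05 at 24 h and -0.54 ± 0.11 at 48 h (SD, n = 3 each). The call at 8 h had adjusted p = 2.96e-05 and that at 48 h adjusted p = 1.92e-05, while at 24 h the log2 fold change was -0.01 (SE 0.06, adjusted p = 0.943). The difference between times was itself called: MTHFD2 was 1.43-fold higher at 24 h than at 8 h (0.52, SE 0.06, adjusted p = 5.65e-05). It was 1.45-fold lower at 48 h than at 24 h (-0.54, SE 0.06, adjusted p = 0.000124).

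MTHFD2 was measured by 2 probe sets, averaged above, and the RefSeq gene table lists 7 MTHFD2 pseudogenes with which probes could share sequence. The probe sets moved alike. One gave log2 fold changes of -0.55 at 8 h, -0.01 at 24 h and -0.52 at 48 h against control, and the other gave -0.50, -0.01 and -0.58, with SEs of 0.06 and 0.07. Which transcripts each of them detects was not tested.

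SHMT2, the mitochondrial serine hydroxymethyltransferase at the entry of the pathway, was likewise low at 8 and 48 h and near control at 24 h. Its log2 ratios were 0.01, -0.01 and 0.00 in control cells, -0.39, -0.39 and -0.45 at 8 h, -0.03, -0.12 and 0.01 at 24 h, and -0.33, -0.38 and -0.23 at 48 h. The 8 h and 48 h arrays again lay below all control and 24 h arrays. Against control it fell by 0.41 at 8 h (SE 0.05, adjusted p = 6.91e-05) and by 0.32 at 48 h (SE 0.05, adjusted p = 0.000494). At 24 h its log2 fold change was -0.04 (SE 0.05, adjusted p = 0.672). SHMT2 was 1.29-fold higher at 24 h than at 8 h (0.37, SE 0.05, adjusted p = 0.000242) and 1.21-fold lower at 48 h than at 24 h (-0.27, SE 0.05, adjusted p = 0.00473). Across the 12 arrays SHMT2 and MTHFD2 had r = 0.90, the highest among pairs of members, a description in which the arrays fall into 4 groups and share their normalization.

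MTHFD1L, the mitochondrial enzyme that releases formate, was lower at each time in the series. Its log2 ratios were 0.00, 0.13 and -0.07 in control cells, -0.17, -0.30 and -0.26 at 8 h, -0.34, -0.31 and -0.37 at 24 h, and -0.65, -0.59 and -0.81 at 48 h. The groups did not overlap one another at any step. The mean was 0.02 ± 0.10 in control cells, -0.24 ± 0.07 at 8 h, -0.34 ± 0.03 at 24 h and -0.68 ± 0.12 at 48 h (SD, n = 3 each). The fall against control had adjusted p = 0.0116 at 8 h, 0.00238 at 24 h and 6.65e-06 at 48 h. Its call at 8 h was lost without control replicate 2 (adjusted p = 0.063) or 8 h replicate 2 (adjusted p = 0.0531), and over all alternatives its adjusted p ran between 0.000176 and 0.063. Between 8 and 24 h the log2 difference was -0.10 (SE 0.07, adjusted p = 0.423), and between 24 and 48 h it fell by a further 0.35 (SE 0.07, adjusted p = 0.00597).

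The annotation also pairs 4 probe sets with MTHFD1L and 3 other loci. They were kept out of the values above because their signal cannot be given to a single gene. Their log2 fold changes against control were -0.22 to -0.15 at 8 h, -0.04 to 0.05 at 24 h and -0.21 to -0.12 at 48 h. For comparison, the probe set of MTHFD1L alone gave -0.26, -0.36 and -0.71 at those times, so the shared sets differed from it most at 24 and 48 h.

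MTHFD2L, the mitochondrial paralogue of MTHFD2, had a course of its own. Its log2 ratios were 0.10, 0.00 and -0.12 in control cells, -0.01, -0.01 and -0.08 at 8 h, -0.42, -0.23 and -0.33 at 24 h, and -0.17, -0.20 and -0.19 at 48 h. The 8 h arrays lay within the control range, and the 24 h arrays lay below those of all other groups. It fell by 0.32 at 24 h against control (SE 0.06, adjusted p = 0.00347) and by 0.29 at 24 h against 8 h (SE 0.06, adjusted p = 0.005). At 48 h the log2 fold change against control was -0.18 (SE 0.06, adjusted p = 0.0562). That value passed the threshold without control replicate 3 (adjusted p = 0.0164), without 24 h replicate 2 (0.0432) and with array weights (0.00173), in a range of 0.00173 to 0.235 over all alternatives.

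The remaining mitochondrial members use formyl-tetrahydrofolate. ALDH1L2, which oxidises it with formation of NADPH, had log2 fold changes of 0.10 at 8 h, 0.01 at 24 h and -0.04 at 48 h against control (SE 0.06 each, adjusted p = 0.281, 0.943 and 0.724). Its 12 log2 ratios lay between -0.15 and 0.14, and every treated group overlapped control. With array weights it was called at 8 h (0.16, SE 0.05, adjusted p = 0.0317), in a range of 0.0317 to 0.714 over the alternatives. It was then also called at 48 h against 8 h (-0.22, SE 0.05, adjusted p = 0.00105), against adjusted p = 0.0959 without weights.

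MTFMT, the methionyl-tRNA formyltransferase, had log2 ratios of 0.00, -0.003 and 0.003 in control cells, -0.11, -0.06 and -0.06 at 8 h, -0.20, -0.07 and -0.20 at 24 h, and -0.007, -0.008 and -0.010 at 48 h. The 48 h arrays did not overlap control although they differed from it by a log2 fold change of -0.008, since the control arrays were close together for this gene. It was 1.11-fold lower at 24 h (-0.16, SE 0.05, adjusted p = 0.0354). That call was lost in 8 alternatives, which were a fit of only these 2 groups and the fits without any 1 control array, 8 h replicate 2, 24 h replicate 1 or 3, or 48 h replicate 2. The adjusted p over the alternatives ran between 0.00202 and 0.148.

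In the cytosol, MTHFD1, the enzyme with synthetase, cyclohydrolase and dehydrogenase activities that takes up formate, was the only member called higher than control. Its log2 ratios were 0.11, 0.00 and -0.07 in control cells, 0.69, 0.51 and 0.57 at 8 h, 0.18, 0.30 and 0.28 at 24 h, and 0.08, 0.10 and -0.07 at 48 h. The 8 h arrays were above all others, the 24 h arrays were above control, and the 48 h arrays overlapped control. The rise of 0.58 at 8 h against control (SE 0.07) had adjusted p = 4.05e-05. The rise of 0.24 at 24 h (SE 0.07, adjusted p = 0.0268) was lost without control replicate 2 or 3 or 24 h replicate 2 or 3, with adjusted p between 0.00599 and 0.0979 over the alternatives. At 48 h the log2 fold change was 0.03 (SE 0.07, adjusted p = 0.861). MTHFD1 fell by 0.34 at 24 h against 8 h (SE 0.07, adjusted p = 0.00309) and by 0.55 at 48 h against 8 h (SE 0.07, adjusted p = 3.56e-05).

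ALDH1L1, the cytosolic formyl-tetrahydrofolate dehydrogenase that is abundant in liver and astrocytes, was lower at all 3 times. Its log2 ratios were 0.07, 0.00 and -0.08 in control cells, -0.28, -0.39 and -0.40 at 8 h, -0.12, -0.27 and -0.27 at 24 h, and -0.42, -0.36 and -0.22 at 48 h. No treated array reached the lowest control array. The 24 h arrays lay above all 8 h arrays and overlapped the 48 h arrays. By limma the log2 difference was 0.14 at 24 h against 8 h (adjusted p = 0.195) and -0.12 at 48 h against 24 h (adjusted p = 0.353). With array weights both were called (adjusted p = 0.016 and 0.00958). Against control it fell by 0.35 at 8 h (SE 0.07, adjusted p = 0.00147), by 0.22 at 24 h (SE 0.07, adjusted p = 0.0381) and by 0.33 at 48 h (SE 0.07, adjusted p = 0.00205). The call at 24 h was lost in 7 alternatives, which were every probe set on its own and the fits without control replicate 1 or 2, 8 h replicate 2, 24 h replicate 2 or 3, or 48 h replicate 2. Its adjusted p over the alternatives ran between 0.00799 and 0.151.

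The probe set shared by MTHFS, which returns a storage form of folate to use, and ST20-MTHFS was fitted with all 28869 probe sets and is not counted with the members. Its log2 fold changes against control were 0.12 at 8 h, 0.00 at 24 h and -0.12 at 48 h (SE 0.07 each, adjusted p = 0.296, 0.999 and 0.264). At 48 h against 8 h it fell by 0.24 (SE 0.07, adjusted p = 0.0181).

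Between consecutive times, MTHFD2 and SHMT2 rose and MTHFD1 and MTHFD2L fell at 24 h against 8 h. That is 2 of 8 in each direction, where 9.99% of all genes rose and 9.4% fell (19.4% together). At 48 h against 24 h, MTHFD1L, MTHFD2 and SHMT2 fell and 0 rose, where 4.86% of all genes fell and 5.26% rose (10.1% together). At 48 h against 8 h, MTHFD1 and MTHFD1L fell and 0 rose, where 14.4% of all genes fell and 15.3% rose (29.7% together). At an unadjusted p under 0.05, limma had 2 rising and 4 falling at 48 h against 24 h, and 0 rising and 4 falling at 48 h against 8 h. The shares of all genes above are at the adjusted threshold, so these unadjusted counts cannot be set against them. The arrays of the times compared did not overlap in 7 of 8 members at 24 h against 8 h, where 33.3% of all genes did so. They did not overlap in 6 of 8 at 48 h against 24 h (24% of all genes) and in 6 of 8 at 48 h against 8 h (37.8% of all genes). With array weights 7 members were called at 48 h against 24 h in place of 3, and 4 at 48 h against 8 h in place of 2. The share of all genes called with weights was not counted, so a rise particular to the members cannot be read from these counts. In the weighted fit the weight was 6.52 on 48 h replicate 2, 0.797 on replicate 1 and 0.199 on replicate 3.

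The paralogues of a pair were set against each other on each array, as the difference of their log2 ratios. For MTHFD1 minus MTHFD1L this difference was -0.01 ± 0.12 in control cells, 0.83 ± 0.03 at 8 h, 0.59 ± 0.07 at 24 h and 0.72 ± 0.03 at 48 h (SD, n = 3 each). Every treated array lay above every control array, so the cytosolic and mitochondrial enzymes moved apart by 0.84 at 8 h, 0.60 at 24 h and 0.73 at 48 h. For MTHFD2 minus MTHFD2L it was 0.02 ± 0.15 in control cells, -0.48 ± 0.08 at 8 h, 0.33 ± 0.10 at 24 h and -0.35 ± 0.11 at 48 h. For that pair the 24 h arrays were above control and the 8 and 48 h arrays below it. For ALDH1L1 minus ALDH1L2 it was 0.02 ± 0.13 in control cells, -0.43 ± 0.11 at 8 h, -0.20 ± 0.07 at 24 h and -0.27 ± 0.12 at 48 h, and the 24 h arrays overlapped control. An exact two-sided permutation test of 3 against 3 cannot go below p = 0.1. That exact test gave p = 0.1 for 8 of the 9 tests and p = 0.2 for ALDH1L1 minus ALDH1L2 at 24 h (0.112 and 0.2 when adjusted over the 9), so none could pass the threshold.

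**Figure D3:**
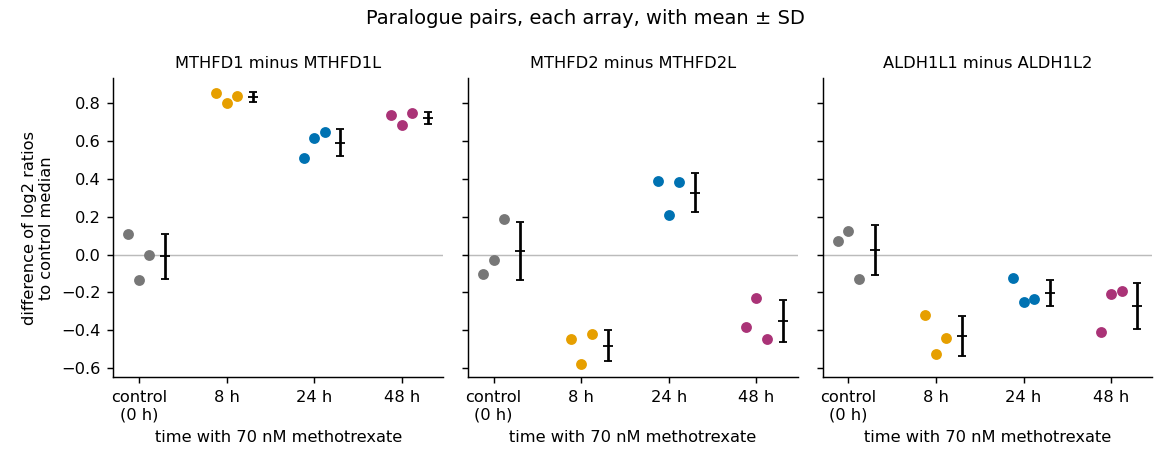
Difference of the log2 ratios of 2 paralogues on each array (y axis) by time with 70 nM methotrexate (x axis), with mean ± SD of 3 arrays in black. MTHFD1 minus MTHFD1L was above control on all 9 treated arrays, and MTHFD2 minus MTHFD2L was below control at 8 and 48 h and above it at 24 h.

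Promoter sequence was looked at because MTHFD2, SHMT2 and MTHFD1L fell at 8 and 48 h, as most genes of the ATF4 pathway did. That pathway is the transcriptional arm of the amino acid stress response. ALDH1L1 fell at those times too. At 24 h MTHFD2 (-0.01) and SHMT2 (-0.04) were near control, while the ATF4 list still had a median log2 fold change of -0.67. A role of ATF4 in these changes was not tested. Windows from 250 bases before to 50 bases after a start site were taken from RefSeq (GRCh38.p14), with 11 windows for 6 of the 9 listed genes (MTHFD1, MTHFD1L, MTHFD2, MTHFD2L, ALDH1L1 and MTHFS). The C/EBP-ATF element that ATF4 binds was searched as TGATGNAA on both strands, and 3.62% of all 35116 windows held it. No window was available for SHMT2, ALDH1L2 or MTFMT. Of the 6 members with a window, MTHFD1L alone held the element, in 3 overlapping windows. Of 9 genes of the ATF4 pathway with a window, 3 held it (ASNS, CHAC1 and ATF3). These 9 genes had 15 windows. Of the 3 serine synthesis genes, 2 had a window (PHGDH and PSAT1), and 0 held the element. A gene with several windows has more places for a match, so these counts of genes cannot be set against the share of windows. The element of MTHFD1L is given here with those of asparagine synthetase (ASNS) and of CHAC1, a glutathione-degrading enzyme. ASNS and CHAC1 fell at all 3 times. ATF3, not shown, fell at 8 h (-0.31) and was not called at 24 h (-0.076) or 48 h (-0.045). DDIT4, another gene of the list, had no match in its window and fell at all 3 times. The element is in capitals, each is given along the strand of its gene, and the spans are chr6:150866346-150866375 (plus), chr7:97872458-97872487 (minus) and chr15:40953251-40953280 (plus).
MTHFD1L: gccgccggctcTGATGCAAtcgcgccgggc
ASNS: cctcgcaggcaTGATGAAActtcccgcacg
CHAC1: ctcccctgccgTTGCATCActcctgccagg

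MTHFD2, which alternated, and MTHFD1, which rose at 8 h, are shown for the 250 bases before their start sites, chr2:74198365-74198614 and chr14:64388103-64388352, both on the plus strand. Neither window held the C/EBP-ATF element. The E-box CACGTG, bound by MYC and USF factors, was the other motif searched, and 7.26% of all windows held it, again a share of windows and not of genes. The matches below are named by gene. The E-box was found in MTHFD1 (in capitals) and in MTHFD1L at chr6:150866320-150866349, and not in the windows of MTHFD2, MTHFD2L, ALDH1L1 or MTHFS. A match is a description of the letters, and binding was not measured.
MTHFD2: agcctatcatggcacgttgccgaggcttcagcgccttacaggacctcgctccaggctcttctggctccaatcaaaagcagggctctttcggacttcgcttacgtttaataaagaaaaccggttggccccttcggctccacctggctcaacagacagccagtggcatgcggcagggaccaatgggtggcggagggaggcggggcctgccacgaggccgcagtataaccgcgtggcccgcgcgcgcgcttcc
MTHFD1: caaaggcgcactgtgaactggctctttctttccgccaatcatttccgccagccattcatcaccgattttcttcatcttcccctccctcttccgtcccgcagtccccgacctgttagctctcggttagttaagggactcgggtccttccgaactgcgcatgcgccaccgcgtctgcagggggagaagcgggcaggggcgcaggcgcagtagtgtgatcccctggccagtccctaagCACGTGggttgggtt
MTHFD1L: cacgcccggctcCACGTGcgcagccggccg

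Genes around the members were counted from lists chosen with earlier results of these data known. Serine synthesis feeds SHMT2, and all 3 of its enzymes fell at each time. Of all genes 12% fell at 8 h, 8.02% at 24 h and 12.3% at 48 h. PHGDH, its first enzyme, had log2 ratios of 0.00, 0.01 and -0.05 in control cells, -0.87, -0.93 and -1.05 at 8 h, -0.26, -0.33 and -0.21 at 24 h, and -0.74, -0.83 and -0.64 at 48 h. PHGDH thus kept the order of groups of SHMT2, with a partial return at 24 h. PSAT1, the aminotransferase of that pathway, fell by 0.79 at 8 h, 0.62 at 24 h and 1.46 at 48 h (SE 0.05 each), and PSPH, the phosphatase, by 0.57, 0.48 and 0.77 (SE 0.06 each). Both had their lowest mean at 48 h, as MTHFD1L did.

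Of 10 genes of the ATF4 pathway, 9 fell at 8 h and 8 fell at 24 h, with 0 rising at either time by limma and 1 rising at an unadjusted p under 0.05. At 48 h 8 fell and 1 rose. By the adjusted p, 12%, 8.02% and 12.3% of all genes fell at 8, 24 and 48 h, and 12.1%, 8.69% and 13% rose. DDIT4, an inhibitor of mTORC1, had log2 fold changes of -2.26, -1.72 and -2.21 at 8, 24 and 48 h (SE 0.08 each), and CHAC1 of -1.98, -1.27 and -2.25 (SE 0.06 each). ATF4 itself was the gene that rose at 48 h (0.29, SE 0.07, adjusted p = 0.00706). ASNS had log2 fold changes of -1.19 at 8 h, -0.47 at 24 h and -1.44 at 48 h (SE 0.06 each), all of them called. After DDIT4 and CHAC1 the largest change was that of DDIT3 at 8 h (-1.44), CTH at 24 h (-1.03) and SLC7A11 at 48 h (-1.75). SLC7A11 had -0.41 at 8 h and -0.64 at 24 h, so it showed no return at 24 h. From 8 to 24 h, 8 of the 10 rose and 0 fell, and from 24 to 48 h, 8 fell and 0 rose. Of all genes 9.99% rose and 9.4% fell at the former step, and 5.26% rose and 4.86% fell at the latter. The median of the list was -1.21 at 8 h, -0.67 at 24 h and -1.37 at 48 h, against -0.17, -0.10 and -0.25 for the one-carbon enzymes.

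Of 13 other folate enzymes and carriers, 10 were measured, and 5 rose and 0 fell at 8 h. At that time 12.1% of all genes rose and 12% fell. TYMS, which makes thymidylate, rose by 0.70 (SE 0.05), SLC25A32, the mitochondrial folate carrier, by 0.45 (SE 0.08) and GART, of purine synthesis, by 0.33 (SE 0.07). SHMT1, the cytosolic counterpart of SHMT2, rose by 0.19 at 8 h (SE 0.06, adjusted p = 0.0444) and by 0.23 at 24 h (SE 0.06, adjusted p = 0.0272). At 24 h 2 rose, TYMS and SHMT1, and 0 fell, with 2 falling at an unadjusted p under 0.05. By the adjusted p, 8.69% of all genes rose and 8.02% fell at 24 h. At 48 h 2 rose and 4 fell, where 13% of all genes rose and 12.3% fell. SLC25A32 had log2 ratios of -0.34, -0.35 and -0.67 at 48 h, against 0.12, -0.10 and 0.00 in control cells, a fall of 0.46 (SE 0.08, adjusted p = 0.00112). GART fell by 0.31 (SE 0.07) and ATIC, which uses formyl-tetrahydrofolate in purine synthesis, by 0.30 (SE 0.05), while TYMS was higher by 0.72 (SE 0.05). In the glycine cleavage system, AMT rose by 0.38 at 48 h (SE 0.09) and DLD fell by 0.18 (SE 0.06), and GLDC had a log2 fold change of -0.12 (SE 0.11, adjusted p = 0.535).

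Mitochondrial translation starts with the formyl-methionine that MTFMT makes. Of 4 measured genes of the mitochondrial formyl-methionine pathway (MARS2, METAP1D, MTIF2 and MTIF3), 1 rose and 1 fell at 8 h. Among all genes 12.1% rose and 12% fell then. At 24 h 0 rose and 1 fell, where 8.69% of all genes rose and 8.02% fell. At 48 h 0 rose and 4 fell, where 13% of all genes rose and 12.3% fell. MARS2, which charges the methionine, had log2 fold changes of 0.49 at 8 h, -0.35 at 24 h and -0.39 at 48 h (SE 0.09 each), all called. The initiation factor MTIF2 fell by 0.51 at 48 h (SE 0.08), and MTIF3 fell by 0.21 at 8 h and by 0.33 at 48 h (SE 0.06 each). MTFMT differed from control by -0.008 at that time (SE 0.05, adjusted p = 0.938).

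**Figure D4:**
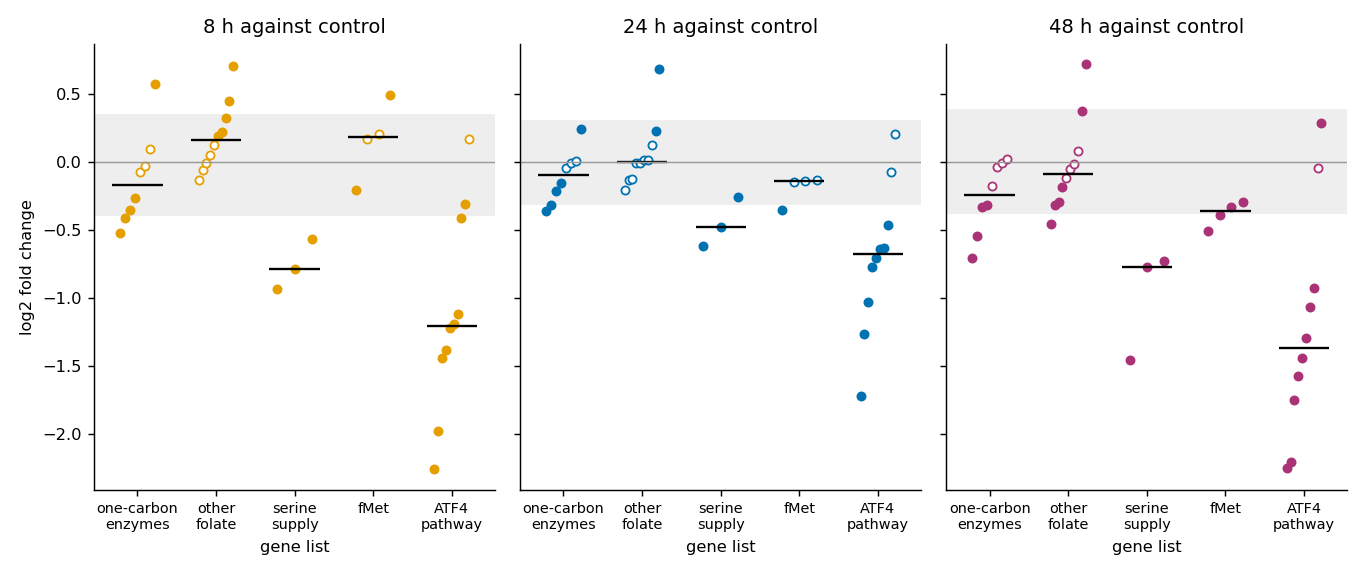
Log2 fold change against control (y axis) of each gene in 5 lists (x axis) at 8, 24 and 48 h. Filled points passed an adjusted p under 0.05, bars are list medians, and the grey band spans the 5th to 95th percentile of all genes. The 3 serine synthesis genes were below 0 at each time, and the other folate enzymes had a median of 0.16 at 8 h and -0.09 at 48 h.

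For each member called by the F test, the genes with the highest r over the 12 arrays were listed among those that also passed that test. These values are descriptions, since the arrays fall into 4 groups and a shared course over the groups gives a high r. SHMT2 was closest to PHGDH (r = 0.98), PRSS3P2 (0.96) and CDHR5 (0.96). MTHFD2 was closest to MXI1 (0.98), HKDC1 (0.97) and NNMT (0.95), and MTHFD1L to SINHCAF (0.98), AP1AR (0.98) and SLC38A1 (0.97). MTHFD1 was closest to RPP30 (0.99), RFC3 (0.99) and SHQ1 (0.99). For MTHFD2L the nearest were DEPDC1B, L3MBTL3 (0.93 each) and SFPQ (0.92). For ALDH1L1 they were ARSD (0.95), SLC41A3 (0.94) and SOX4 (0.94), and for MTFMT TCF7L2 (0.93), SNORD46 (0.91) and H2BC12 (0.91). Among members, MTHFD1 had r = -0.57 with SHMT2, -0.50 with ALDH1L1, -0.44 with MTFMT and -0.315 with MTHFD2. Its r was positive with ALDH1L2 (0.52), MTHFD2L (0.18) and MTHFD1L (0.14).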

How the data were processed

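Expression was measured on 12 Affymetrix human gene arrays, grouped by sample title. The deposited log2 values, 1 per probe set and array, were made with RMA on build hg19, per the submitters' processing notes, without versions. The log2 scale is assumed from RMA, as no header or label states it. The control median was exactly 0 in all 28869 probe sets, so the values are ratios to control. How that centring was made is not stated, and signal over background is unknown. The number of arrays, 3 per group, limits the precision.

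The platform annotation gave 1 gene to 19310 probe sets, several to 1752 and none to 7807. Single-gene probe sets of a gene were averaged (685 of 18377 genes had several). A linear model with a mean per group was fitted to all 12 arrays (limma 3.58.1, R 4.3.3, 8 residual and 4.71 prior degrees of freedom). It gave 6 two-sided comparisons and the F test, adjusted over all genes by Benjamini-Hochberg at 0.05. Every share of all genes called is from this fit at that threshold. None was counted at an unadjusted p, with array weights or in another alternative fit. The code was tested on simulated data. The labels call the replicates biological without saying that they were separate cultures, so p-values measure the spread between these samples.

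The members, lists and motifs were chosen with earlier results of these data known. All members were named. Each list gave up to 3 called genes of largest change per comparison with control. SHMT1 at 8 h, GART and ATIC at 48 h, and DLD, GLDC, ASNS and ATF4 fall outside that rule. So do ATF3 and, at 8 and 24 h, SLC7A11. These were chosen after their values were seen. Each member's 3 nearest genes by r were named. Figures used Python 3.11.15, pandas 2.3.3, numpy 2.4.6 and matplotlib 3.10.9.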

Additional observations from a re-analysis of the deposited data

Results flagged for a closer look

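The differences between treated times were themselves past the threshold for 5 members, so their difference from control was not the same at each time (limma, adjusted p under 0.05, n = 3 per group). At 24 h against 8 h the log2 difference was 0.52 for MTHFD2 and 0.37 for SHMT2, both higher on all 3 arrays. It was -0.34 for MTHFD1 and -0.29 for MTHFD2L, both lower on all 3 arrays. At 48 h against 24 h it was -0.35 for MTHFD1L, -0.54 for MTHFD2 and -0.27 for SHMT2. At 48 h against 8 h it was -0.55 for MTHFD1 and -0.44 for MTHFD1L. In each of these the arrays of both times did not overlap. The comparisons share arrays, the 24 h group standing in the first and the second. With 3 samples a group, single arrays were not tested as outliers.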

How the results depend on the processing

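Of 48 member fold changes, 34 kept their side of the threshold under all 17 or 18 alternatives run on them. Those were a block for replicate number, estimated array weights, arrays centred on their medians, fits restricted to the groups compared, a fit per probe set, and leaving out each array. No called value changed sign, but for the members too this was largely fixed in advance. In each call of the main fit the groups did not overlap, so leaving out 1 array or weighting arrays cannot reverse it. The replicate block and the fits restricted to the groups compared leave the fold change as it is. The count of members at 24 h against control, 5, came to 2 with an adjusted p under 0.01 and to 2 to 5 when 1 array was left out. The other counts ranged over 4 to 5 (8 h against control), 4 to 5 (48 h against control), 4 to 4 (24 h against 8 h), 3 to 4 (48 h against 24 h), 2 to 2 (48 h against 8 h) and 6 to 7 (F test) without 1 array. With array weights, 7 members were called at 48 h against 24 h and 4 at 48 h against 8 h. The share of all genes called in the weighted fit was not counted. The cause of the differences between settings was not tested. With the replicate block the 6 comparisons gave the same counts, and 6 members passed the F test, MTFMT being lost (adjusted p = 0.0612). The block is not a pairing stated by the labels. Of 18 same-numbered pairs of arrays from different groups, 11 had deviations correlated over 0.1 (median 0.15, lowest -0.45). Of 36 other-numbered pairs, 14 did (median -0.16, highest 0.60). The paralogue differences kept their direction in 69 of 69 alternatives, but this was largely fixed in advance. The replicate block leaves the mean difference as it is, and its 3 pairs cannot go below an exact sign-flip p of 0.25. Where treated and control arrays did not overlap, leaving out 1 array cannot reverse the difference. Signal over background could not be judged, so a weak probe set and an unchanged gene cannot be told apart for ALDH1L2.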
